A study of Mus musculus with 8 samples.

Results

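The 10 apolipoprotein genes *Apoa1*, *Apoa2*, *Apoa4*, *Apoa5*, *Apob*, *Apoc1*, *Apoc2*, *Apoc3*, *Apoe* and *Apom* were taken by symbol from the 45706 gene identifiers counted in mouse liver RNA, with symbols from the GENCODE M21 annotation of GRCm38. All 10 passed the filter on low counts, which left 15491 genes to test. RNA came from 8 livers of male mice whose strain the labels give as C56B6/J, 4 from mice injected with AAV2/8-*Srsf10-kd* and 4 from mice injected with AAV2/8-*Ctrl*. Both viruses carried a mirE/shRNA in a miR-30 backbone behind the chicken β-actin promoter, which is not restricted to hepatocytes, and serotype 8 enters mainly the liver. All 8 mice were injected at 6 weeks of age and were given, from 4 weeks later and for 12 weeks, a diet with 60% of calories from fat, so no liver on a control diet enters the comparison. SRSF10 is an SR-type RNA-binding protein of splicing and polyadenylation, and the study asked what its loss does to the liver in obesity.

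Apolipoproteins are the protein parts of the particles that carry fat and cholesterol in blood. ApoB is the large scaffold of very-low-density lipoprotein (VLDL) and its descendants, is loaded with lipid as it is made, and does not move between particles. The others are small and exchangeable. They build high-density lipoprotein (ApoA1, ApoA2), act on lipoprotein lipase (ApoC2 as its activator, ApoC3 as an inhibitor, ApoA5 as an enhancer), or serve as a ligand of lipoprotein receptors (ApoE). Hepatocytes make all of them, and macrophages also make ApoE, ApoC1 and ApoC2.

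The *Apob* transcript stands apart from the others in length. Its merged exons hold 13934 bases in 29 exons, against 537 bases (*Apoa2*) to 2522 bases (*Apoa5*) for the 9 short members. *Apob* (ENSMUSG00000020609) lies on the plus strand at chr12:7977648-8016835. A single exon, number 26, holds 7467 bases or 53.6% of the transcript. In that exon lies the site at which the APOBEC1 enzyme and its partner A1CF turn a C into a U, which makes a stop codon from codon 2179 of 4505 and yields the short ApoB48 protein. It is shown because the genes of both proteins are measured below. The site, read from the GRCm38 genome at chr12:8008045-8008074 on the plus strand, has the edited codon and then the mooring sequence in capitals. Gene counts do not show whether the base was edited.
Apob editing site: tacgcgataCAAttTGATCAGTATAttaaa

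Promoters of *Apob*, *Apoa2* and *Apoe* are shown to set that of the long *Apob* gene beside those of the 2 short members with the highest levels per length, and because regulators of such promoters were measured. Each is the 120 bases before the GENCODE start, from RefSeq's GRCm38.p6 sequences, 5′ to 3′ on the gene's strand. RefSeq windows were found for 8 of the 10 members, and *Apoc1* and *Apoc3* had none. Searched on both strands were TATAAA (the TATA box), AGGTCA (the hexamer of nuclear receptors) and the HNF4-type repeats CAAAGTCCA and a form with a G more, CAAAG then G then TCCA, the last of which was added after the *Apob* sequence had been seen. None of these overlapped another within the printed sequences. Capitals mark a match.
Apob, chr12:7977528-7977647, plus strand: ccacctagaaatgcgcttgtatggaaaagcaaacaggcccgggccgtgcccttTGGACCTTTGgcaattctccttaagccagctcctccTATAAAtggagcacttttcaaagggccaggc
Apoa2, chr1:171224934-171225053, plus strand: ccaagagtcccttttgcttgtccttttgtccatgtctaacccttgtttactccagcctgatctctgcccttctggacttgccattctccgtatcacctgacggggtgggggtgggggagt
Apoe, chr7:19699189-19699308, minus strand: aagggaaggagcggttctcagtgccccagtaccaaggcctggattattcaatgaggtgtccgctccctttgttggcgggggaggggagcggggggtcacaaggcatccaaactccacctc

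*Apob* had TATAAA at position -31 and the longer HNF4-type repeat, on the opposite strand, at position -67 from the GENCODE start. Of 32851 RefSeq promoter windows of 250 bases, 12.4% hold TATAAA, 14% hold AGGTCA, 0.384% hold CAAAGTCCA and 0.0426% hold the longer repeat. The printed *Apoa2* and *Apoe* stretches held none of the 4 sequences. These stretches are shorter than the 250-base windows, in which *Apoa2* had TATAAA at -212. From other RefSeq starts, *Apoa2* had AGGTCA at -238 and *Apoe* had TATAAA at -100 and -96. Among the other short members, *Apoa5* had TATAAA at -56 and *Apoc2* had AGGTCA at -115, so TATAAA was not particular to *Apob*. A match is a string of letters and no evidence of binding.

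Total counts ran from 50456404 to 59697241 per liver. Except for the sums of marker genes, levels are given as CPM, the reads of a gene relative to its library total after TMM scaling. The edgeR adjusted p comes from its quasi-likelihood test, two-sided, and was adjusted by Benjamini-Hochberg for all 15491 genes. For *Srsf10*, the target of the shRNA, *Ctrl* held 31.6, 33.7, 35.3 and 30.9 CPM and *Srsf10-kd* held 34.3, 34.0, 41.0 and 36.5 CPM, a log2 fold change of 0.15 (edgeR adjusted p = 0.378), and 0.088 without *Srsf10-kd* 3, so its RNA did not separate the groups as the labels say. "The livers labelled *Srsf10-kd*" is therefore meant by label only. *Srsf10-kd* 3 lay farthest from the rest on the first principal component and had the steepest trend of levels on transcript length. The trend of *Ctrl* 3 fell among those of the livers labelled *Srsf10-kd*. The value without *Srsf10-kd* 3, or without both, is given where it moved a result by over 1.5 times or bears on a call. Marker sums are CPM without TMM scaling, relative to the library total alone. Of the 9 hepatocyte markers chosen, 8 were found in the count table, and none was at 0. Their summed levels were 80399 to 110295 CPM in *Ctrl* and 99458 to 115890 CPM under the *Srsf10-kd* label. *Alb* led that sum, with TMM-scaled means of 62974 and 73274 CPM. Of the 8 genes, 4 had a positive and 4 a negative log2 fold change, so the sum mainly follows *Alb*. The 8 macrophage markers summed to 205 to 291 and 162 to 288 CPM, and none was at 0. The 5 cholangiocyte markers summed to 31.1 to 39.7 and 48.0 to 64.4 CPM, without overlap. The 6 blood and leukocyte markers summed to 169 to 227 and 183 to 540 CPM, with the higher values in *Srsf10-kd* 3 and 4. Red-cell haemoglobin led that sum, with TMM-scaled means of 142 and 265 CPM for *Hbb-bs* and 39.5 and 78.5 CPM for *Hba-a1*. Of the 6, 4 had a positive log2 fold change, and the leukocyte genes *Ptprc* (-0.24) and *Cd3e* (-0.26) a negative one. The part of these cell types in the results below was not tested. In such whole-liver RNA, fewer cells of a type and less RNA per cell cannot be told apart.

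*Apob* had the largest difference between the groups relative to its spread, and most of the short apolipoprotein mRNAs had a fitted value of the opposite sign, which did not pass the test. *Apob*, the VLDL scaffold, averaged 8291 ± 1092 CPM in *Ctrl* against 4355 ± 1152 CPM (SD, n = 4) under the *Srsf10-kd* label, a ratio of 0.525. Of the 9 short members, 7 had a positive log2 fold change (5 after removal of the trend on length) and 2 a negative one (*Apoa1* and *Apoa4*), and their log2 fold changes ran from -0.87 to 0.54 around a median of 0.31. The median was 0.24 over the 10 members and 0.01 over all genes tested. Without *Srsf10-kd* 3 the median of the 9 was 0.14, with 6 positive, and without both livers numbered 3 it was 0.28, with 8 positive. By the edgeR adjusted p, 0 members passed 0.05, where 11 genes (0.071%) did, all 11 lower, a number that ran from 0 to 544 with 1 liver left out. An unadjusted p under 0.05 was reached by 3 members, beside 21.8% of all genes. *Apob* was the 1 member lower, beside 10.6% of all genes, and *Apoa2* and *Apoc2* were the 2 members higher, beside 11.2% of all genes. The groups did not overlap for *Apob* alone, in the lower direction, beside 7.53% of all genes lower and 6.73% higher. DESeq2, the study's tool, called 819 genes (5.21%) and among the members *Apob* alone. Limma-voom with sample quality weights called 1814 (11.7%) and again only *Apob* among the members. So did edgeR without both livers numbered 3, with 1342 genes (8.62%). The livers are numbered in the labels without a word on litter or day, and p-values measure the spread between these livers.

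**Figure D1:**
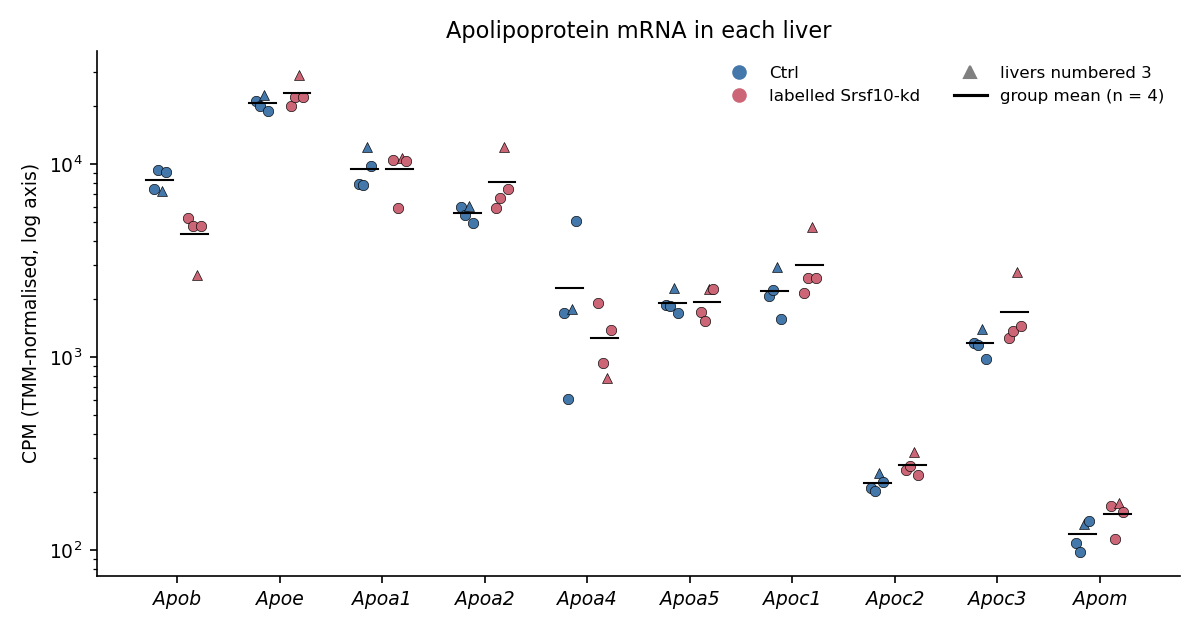
CPM of each apolipoprotein gene on a log axis, with 1 point per liver, *Ctrl* in blue and labelled *Srsf10-kd* in red, triangles for the livers numbered 3 and bars for group means (n = 4). *Apob* is the member whose groups do not overlap, and 6 of the 10 members reach their highest value in *Srsf10-kd* 3, where *Apob* is lowest.

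*Apob* had 7451, 9353, 7254 and 9107 CPM in *Ctrl* 1 to 4 and 5231, 4749, 2659 and 4782 CPM in *Srsf10-kd* 1 to 4. All 4 livers labelled *Srsf10-kd* lay below the lowest *Ctrl* liver, and *Srsf10-kd* 3 lay below the other 3 of its group. The log2 fold change was -0.93 (standard error 0.22, 95% interval -1.41 to -0.45), with an unadjusted p of 0.00155 and an edgeR adjusted p of 0.115. The two-sided exact permutation test on log2 CPM gave p = 0.0286, the smallest that 4 livers against 4 allow. The log2 fold change was -0.94 with DESeq2 (adjusted p = 0.00272) and -0.82 with limma-voom and sample quality weights (adjusted p = 0.00953). Without *Srsf10-kd* 3 edgeR gave -0.75 (adjusted p = 0.0811), without *Ctrl* 3 it gave -0.99 (adjusted p = 0.0588), and without both it gave -0.81 (adjusted p = 0.0222). None of the 14144 stretches of 75 bases in *Apob* transcripts occurs in another gene's transcripts.

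The members together took 5.20 ± 0.335% of all counts in *Ctrl* and 5.31 ± 0.615% in the livers labelled *Srsf10-kd* (SD, n = 4), so the total differed by less than its spread. Within that total *Apob* took 15.0%, 19.2%, 12.7% and 17.4% in *Ctrl* 1 to 4, and 10.7%, 10.2%, 4.05% and 9.07% in *Srsf10-kd* 1 to 4. These shares did not overlap, at 16.1 ± 2.83% against 8.50 ± 3.05%. The log2 CPM of *Apob* minus the mean log2 CPM of the 9 short members was 2.07, 2.61, 1.76 and 2.23 in *Ctrl* and 1.40, 1.46, 0.05 and 1.20 in the livers labelled *Srsf10-kd*. The lowest *Ctrl* liver by this measure was *Ctrl* 3, and the lowest of all was *Srsf10-kd* 3, in which *Apob* and the mean short member had about the same CPM. Group means were 2.17 ± 0.35 and 1.03 ± 0.66 (SD, n = 4), a difference of -1.14. Taken from fitted log2 fold changes in place of log2 CPM, the difference was -0.79 without *Srsf10-kd* 3, so the 2 values are not the same measure. The CPM ratio of *Apob* to *Apoe* was 0.406 ± 0.0832 in *Ctrl* and 0.196 ± 0.0731 in the livers labelled *Srsf10-kd*. Ratios of *Apob* to 7 of the 9 short members did not overlap between groups, those to *Apoa1* and *Apoa4* being the exceptions. *Apob* by itself did not overlap and enters every ratio, so these 7 are not separate results.

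The difference between long and short transcripts was not limited to apolipoproteins, so *Apob* was set beside genes of its own length. Of 3158 tested genes with exons within 2-fold of the *Apob* length, 76.6% had a negative log2 fold change, with a median of -0.20. Of 3840 genes as short as the short members, 22.0% did, with a median of 0.24. The 9 short members, with their median of 0.31, lay near the second group, whereas *Apob* lay below most of the first. Among the genes as long as *Apob*, 62 (1.96%) had a log2 fold change as low, and among the 884 of these with a mean log2 CPM of at least 5, 3 (0.339%) did. Over the livers, the median log2 deviation of the long genes was 0.13, 0.16, -0.05 and 0.19 in *Ctrl* 1 to 4 and -0.04, -0.02, -0.23 and -0.10 in *Srsf10-kd* 1 to 4. The deviation of *Apob* from its own mean was 0.34, 0.67, 0.30 and 0.63, then -0.17, -0.31, -1.15 and -0.30. In *Ctrl* 3 the long genes were at -0.05 and *Apob* had 7254 CPM. In *Srsf10-kd* 1, 2 and 4 the long genes were at -0.04, -0.02 and -0.10, and *Apob* had 4749 to 5231 CPM. How far the trend on length accounts for the *Apob* difference was not tested.

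With the trend of each library on transcript length taken out, the log2 fold change of *Apob* was -0.68 (edgeR adjusted p = 0.172). Of the short members, 6 then had values closer to 0, at 0.12 for *Apoa2*, 0.09 for *Apoc1*, -0.01 for *Apoc2*, 0.21 for *Apoc3*, 0.01 for *Apoe* and 0.05 for *Apom*. The other 3 had values farther from 0, at -0.26 for *Apoa1*, -1.06 for *Apoa4* and -0.10 for *Apoa5*. By fitted log2 fold changes, the difference of *Apob* from the short members was -0.57 in that fit. By the same measure it was -1.09 in edgeR with DESeq2 size factors and the trend left in. The -1.14 above comes from log2 CPM and is not the same measure. The direction for *Apoc2* and for *Apoa5* was thus opposite to that without the correction. What made levels follow transcript length was not tested. The trend did not divide the groups cleanly. The slope of log2 CPM on log2 transcript length was -0.027 in *Ctrl* 3, below -0.022 and -0.021 in *Srsf10-kd* 1 and 2. In *Ctrl* 1, 2 and 4 the slope was 0.077, 0.084 and 0.113, above every liver labelled *Srsf10-kd*. The trend thus followed the labels in part, and it and the labelled condition cannot be fully told apart.

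**Figure D2:**
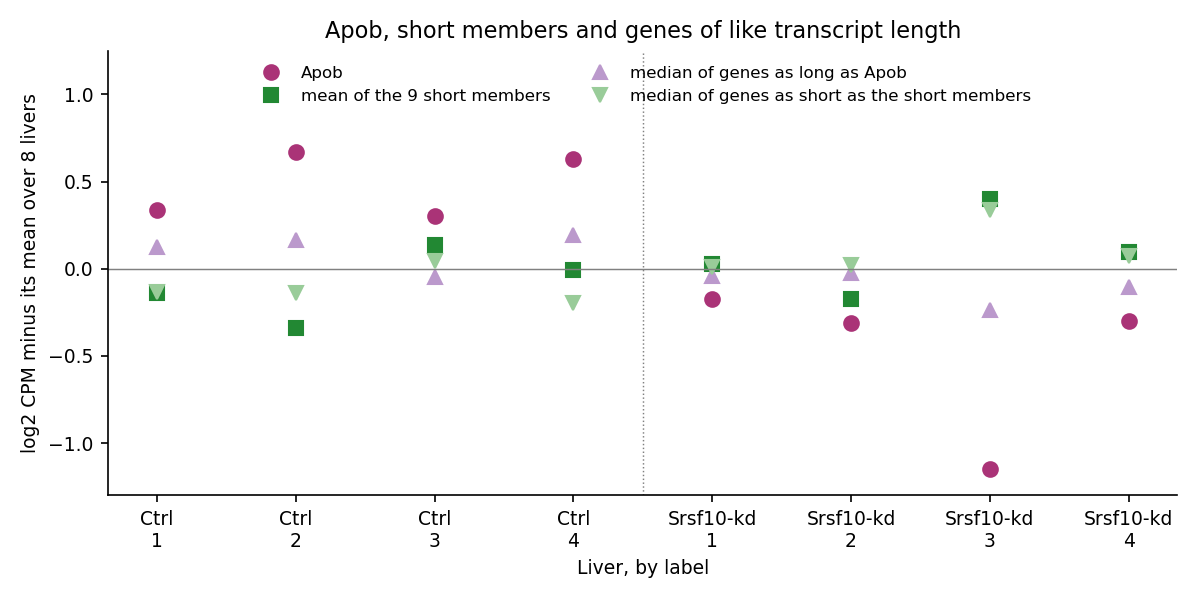
Log2 CPM minus its mean over the 8 livers, in each liver, for *Apob*, for the mean of the 9 short members, and for the median of tested genes as long as *Apob* within 2-fold (n = 3158) or as short as the short members (n = 3840). *Apob* lies above 0 in the 4 *Ctrl* livers and below 0 in the other 4, farther out than the median of genes of its length in each liver. Single genes spread more than such a median, and 62 of the 3158 had a log2 fold change as low as *Apob*.

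**Figure D3:**
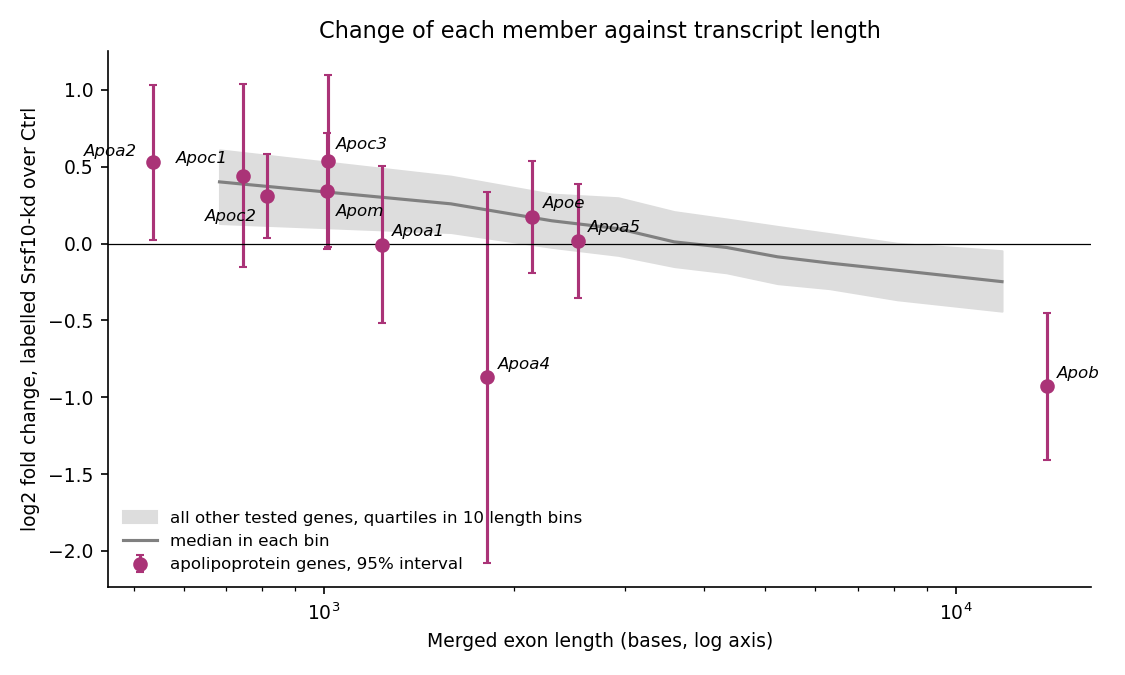
Log2 fold change of each member (points, bars for the 95% interval of edgeR's fit) against merged exon length on a log axis, over the median (line) and quartiles (grey band) of all other tested genes in 10 length bins. The bin medians run from 0.40 in the shortest bin to -0.25 in the longest, and *Apob* at -0.93, *Apoa4* at -0.87 and *Apoa1* at -0.01 lie below the band.

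Among the high-density lipoprotein genes, *Apoa2* had the most positive difference and *Apoa1* the one nearest to 0. *Apoa2* (ENSMUSG00000005681, chr1:171225054-171226379), the second protein of these particles, had 5960, 5427, 6065 and 4934 CPM in *Ctrl*, and 5915, 6683, 12312 and 7424 CPM under the *Srsf10-kd* label. The value in *Srsf10-kd* 3 was far above the others, 3 livers labelled *Srsf10-kd* lay above every *Ctrl* liver, and the fourth lay within their range. The fitted log2 difference was 0.53 (standard error 0.23, unadjusted p = 0.0410, edgeR adjusted p = 0.214), and it was 0.26 without *Srsf10-kd* 3. *Apoa1* (ENSMUSG00000032083, chr9:46228580-46230466), the main structural protein and activator of the cholesterol-esterifying enzyme LCAT, had 7882, 7764, 12258 and 9806 CPM in *Ctrl* and 10523, 5940, 10692 and 10376 CPM in the others. The groups overlapped, and their means of 9428 ± 2106 and 9383 ± 2299 CPM gave a log2 fold change of -0.01 with a 95% interval from -0.52 to 0.50. *Apom* (ENSMUSG00000024391, chr17:35128997-35132050), which carries sphingosine-1-phosphate on these particles, had 109, 97.7, 137 and 142 CPM in *Ctrl* and 169, 114, 175 and 156 CPM in the others. The fitted log2 difference was 0.34 (edgeR adjusted p = 0.260), with 3 livers labelled *Srsf10-kd* above the *Ctrl* range.

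The genes for the small proteins that act on lipoprotein lipase had fitted values between 0.02 and 0.54 on the log2 scale, with 95% intervals that overlapped. *Apoc3* (ENSMUSG00000032081, chr9:46232933-46235636), the inhibitor, had 1184, 1153, 1403 and 974 CPM in *Ctrl*, and 1250, 1368, 2771 and 1447 CPM under the *Srsf10-kd* label. The last group overlapped the first except for *Srsf10-kd* 3 and 4, and the log2 fold change of 0.54 (standard error 0.25, edgeR adjusted p = 0.242) became 0.20 without *Srsf10-kd* 3. *Apoc2* (ENSMUSG00000002992, chr7:19671579-19677941), the activator, had 210, 203, 250 and 224 CPM in *Ctrl* and 261, 271, 323 and 243 CPM in the others. Of these, 3 lay above every *Ctrl* liver, for a log2 fold change of 0.31 (standard error 0.12, unadjusted p = 0.0313, edgeR adjusted p = 0.198). Of its 75-base stretches, 77.5% also lie in transcripts of *Gm44805*, a gene on the same strand with no row of its own in the count table, so its count is uncertain.

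*Apoc1* (ENSMUSG00000040564, chr7:19689481-19692660), which inhibits uptake by lipoprotein receptors, had 2064, 2230, 2932 and 1581 CPM in *Ctrl*, and 2147, 2569, 4689 and 2563 CPM under the *Srsf10-kd* label. *Srsf10-kd* 3 was the sole liver of its group above the *Ctrl* range, and the fitted log2 difference was 0.44 (edgeR adjusted p = 0.335) with it and 0.14 without it. *Apoa5* (ENSMUSG00000032079, chr9:46268633-46271919), the enhancer of the lipase, had 1852, 1832, 2269 and 1695 CPM in *Ctrl* and 1703, 1532, 2260 and 2251 CPM in the others. The groups overlapped nearly whole, at a log2 fold change of 0.02 (95% interval -0.35 to 0.39). *Gm47544* overlaps it on the opposite strand and shares 14.1% of its 75-base stretches.

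*Apoe* (ENSMUSG00000002985, chr7:19696109-19699188), the receptor ligand, had the highest counts of the members in every liver. It had 21144, 20063, 22840 and 18723 CPM in *Ctrl*, and 19929, 22316, 29073 and 22130 CPM under the *Srsf10-kd* label. All but *Srsf10-kd* 3 lay within the *Ctrl* range, and the fitted log2 difference was 0.18 (standard error 0.16, edgeR adjusted p = 0.521), or 0.054 without that liver (edgeR adjusted p = 0.888). Macrophages also make *Apoe*, *Apoc1* and *Apoc2*. Without TMM scaling, the macrophage markers summed to 258 CPM in *Srsf10-kd* 3, within the *Ctrl* range of 205 to 291 CPM. The part of macrophages in the levels of these 3 genes was not tested.

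*Apoa4* (ENSMUSG00000032080, chr9:46240696-46243459), which the intestine and the fat-laden mouse liver make, varied most of the members. It had 1684, 606, 1769 and 5080 CPM in *Ctrl* and 1909, 935, 780 and 1372 CPM in the others. The *Ctrl* group held both the lowest and the highest liver, 8.38-fold apart. Its log2 fold change of -0.87 had a standard error of 0.54 (edgeR adjusted p = 0.346). Without *Ctrl* 4 it was -0.12, and limma-voom with sample quality weights gave 0.16, the opposite direction. Antisense genes *Gm10680* and *Gm47528* share 56.1% of its 75-base stretches. The former had 28 to 170 counts per liver against 37057 to 289384 for *Apoa4*, and the strand setting of the deposited counts is not given in the sources used here.

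Across livers, *Srsf10-kd* 3 held the highest value of *Apoa2*, *Apoc1*, *Apoc2*, *Apoc3*, *Apoe* and *Apom* and the lowest of *Apob*. *Ctrl* 4 held the lowest value of *Apoa2*, *Apoc1*, *Apoc3* and *Apoe* and the highest of *Apoa4*. *Ctrl* 2 held the highest value of *Apob* and the lowest of *Apoa4*, *Apoc2* and *Apom*. *Ctrl* 1, *Srsf10-kd* 1 and *Srsf10-kd* 4 held no extreme of any member. The slope of log2 CPM on log2 transcript length over all genes was -0.150 in *Srsf10-kd* 3 and 0.113 in *Ctrl* 4, its 2 ends, so the livers with the most extremes among the members are also those at the ends of the trend on length. Levels of *Apoa1* and *Apoa5*, whose genes lie with *Apoc3* and *Apoa4* in a cluster on chromosome 9, were highest in *Ctrl* 3 and lowest in *Srsf10-kd* 2.

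Levels were compared between members only per length, as CPM per kb of merged exons. The order of the means over 8 livers was *Apoa2* with 12737 ± 4349, *Apoe* with 10303 ± 1483, *Apoa1* with 7609 ± 1651 and *Apoc1* with 3490 ± 1259 CPM per kb. Then followed *Apoc3* with 1424 ± 550, *Apoa4* with 974 ± 784, *Apoa5* with 763 ± 117, *Apob* with 454 ± 168, *Apoc2* with 305 ± 47.4 and *Apom* with 136 ± 28.3 CPM per kb (SD, n = 8). The top 3 are the receptor ligand and the 2 main proteins of high-density lipoprotein, and the lowest is the lipid carrier of the same particle. *Apoa2* and *Apoe*, *Apoc3* and *Apoa4*, *Apoa4* and *Apoa5*, and *Apob* and *Apoc2* were neighbours closer on the log2 scale than the larger of their SDs over livers. The other 5 neighbouring pairs were farther apart than that and kept their order in 8 of 8 livers. *Apob* was eighth of 10 in *Ctrl*, with 595 ± 78.3 CPM per kb, and ninth in the livers labelled *Srsf10-kd*, with 313 ± 82.7 CPM per kb. With the length of the longest coding transcript in place of merged exons, *Apoe* (15644 CPM per kb) stood above *Apoa2* (13204 CPM per kb).

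**Figure D4:**
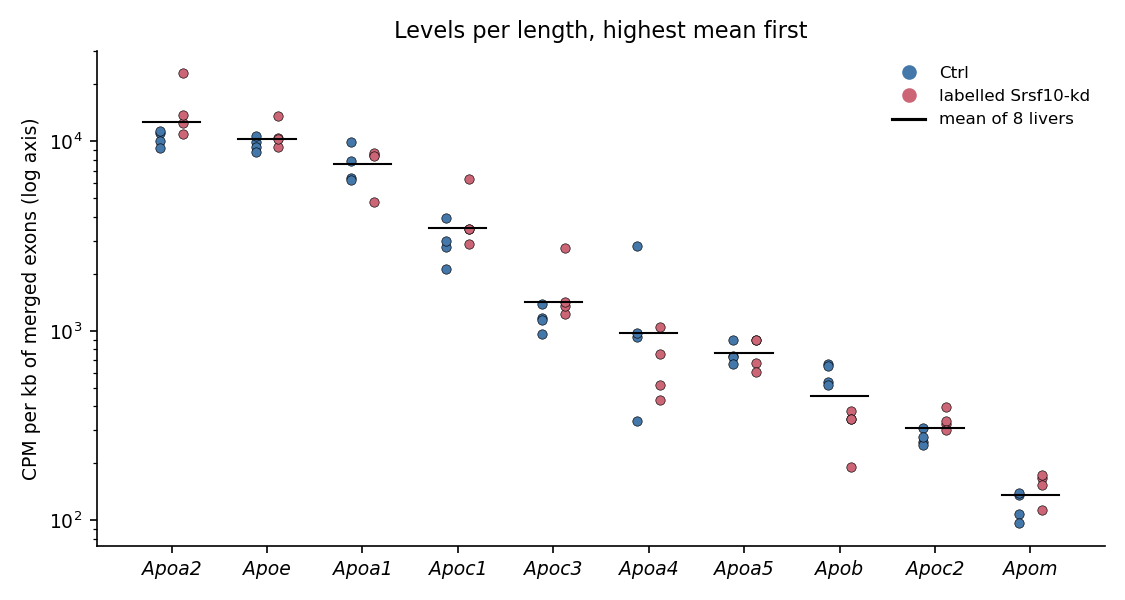
CPM per kb of merged exons on a log axis for the 10 members, ordered by their mean over 8 livers (bars), with 1 point per liver in blue (*Ctrl*) and red (labelled *Srsf10-kd*). *Apob*, at a mean of 454 CPM per kb, is the member whose blue and red points do not mix.

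The genes around the members were read from 5 lists. Of 18 genes of ApoB assembly, editing and secretion, 13 had a negative and 5 a positive log2 fold change, beside 48.7% negative over all genes tested, with a median of -0.13, and 0 passed the adjusted test. At an unadjusted p under 0.05, 4 were lower, beside 10.6% of all genes, and 0 higher, beside 11.2%. *A1cf* (chr19:31868764-31948995), the partner of the editing enzyme, had 156, 173, 169 and 141 CPM in *Ctrl*, and 75.1, 81.2, 22.1 and 60.3 CPM under the *Srsf10-kd* label. The groups lay far apart, and again *Srsf10-kd* 3 was lowest. Its log2 fold change of -1.42 (standard error 0.33) had an edgeR adjusted p of 0.115, which was 0.0182 without *Srsf10-kd* 3 (-1.14) and 0.00181 with DESeq2. Its 3771 bases of exon are near the middle of the length range, and the fold change was -1.43 after the length trend was removed. *Apobec1*, the editing enzyme itself, had 13.1 ± 1.59 and 12.3 ± 1.18 CPM, for a log2 fold change of -0.10 (edgeR adjusted p = 0.625).

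*Mttp*, which loads lipid onto nascent ApoB, had a log2 fold change of -0.38 (unadjusted p = 0.0314, edgeR adjusted p = 0.199). *Mia2*, an export receptor for large cargo at the endoplasmic reticulum, had 365 ± 15.3 and 291 ± 38.9 CPM without overlap of the groups (log2 fold change -0.33, edgeR adjusted p = 0.176), a value that was -0.11 after the trend on length was removed (edgeR adjusted p = 0.651) and -0.21 without both livers numbered 3. *Sec23a*, a coat protein of the vesicles that leave there, had 158 ± 22.7 and 118 ± 17.6 CPM (log2 fold change -0.43, adjusted p = 0.161). *Surf4*, a receptor that carries lipoproteins in those vesicles, had 257 ± 10.7 and 231 ± 8.18 CPM without overlap. Its log2 fold change was -0.15 (edgeR unadjusted p = 0.127, adjusted p = 0.333). In this list of 18, the groups did not overlap for 3 genes in the lower direction, beside 7.53% of all genes. *Mttp*, *Apobec1* and *Surf4* were picked after their values were seen.

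Of 24 transcription factors of apolipoprotein genes, 10 had a positive and 14 a negative log2 fold change, beside 48.7% negative over all genes tested. The median was -0.05, and 1 passed the adjusted test, beside 0.071% of all genes. At an unadjusted p under 0.05, 5 were lower, beside 10.6% of all genes, and 2 higher, beside 11.2%. *Ppara* (chr15:85734983-85802819), the fatty acid receptor that acts on *Apoa5* and *Apoc3* in liver, fell from 197 ± 30.3 to 83.3 ± 4.45 CPM (log2 fold change -1.24, edgeR adjusted p = 0.0166). That p was 0.106 without *Ctrl* 2 and 0.0823, 0.0536 and 0.0969 without *Srsf10-kd* 1, 2 and 4, at fold changes between -1.27 and -1.21. *Hnf4a* (chr2:163506808-163572910), the liver factor that binds repeats of the kind printed above in *Apob*, had 850, 829, 597 and 919 CPM in *Ctrl* and 653, 570, 444 and 588 CPM in the others. *Ctrl* 3 lay below *Srsf10-kd* 1, so the groups overlapped, and the fitted log2 difference was -0.50 (edgeR adjusted p = 0.155). Without both livers numbered 3, *Hnf4a* had -0.52 and passed (edgeR adjusted p = 0.0271). *Cebpb*, a factor of the acute-phase response, had 119 ± 26.8 and 195 ± 35.3 CPM, without overlap and in the higher direction (log2 fold change 0.71, edgeR adjusted p = 0.119), with 0.46 without both livers numbered 3 and 0.45 after removal of the trend on length.

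Of 11 receptors and uptake genes, all 11 had a negative log2 fold change, beside 48.7% of all genes tested, with a median of -0.25, and 0 passed the adjusted test. An unadjusted p under 0.05 was reached by 3, all lower, beside 10.6% of all genes lower and 11.2% higher. The exons of the 11 genes hold 3233 to 17717 bases, and after the trend on length was removed 8 were negative and 3 positive. *Lrp6*, a receptor of Wnt signalling that also takes part in lipoprotein uptake, had a log2 fold change of -0.54 (edgeR adjusted p = 0.150, and 0.0378 without *Ctrl* 3), and the sinusoidal scavenger receptor *Stab2* had -0.57, or -0.37 without *Ctrl* 4. After the trend on length was removed these were -0.27 and -0.38. Without both livers numbered 3, *Lrp6* had -0.58 (edgeR adjusted p = 0.00913) and *Stab2* had -0.65 (edgeR adjusted p = 0.0479). Of 13 genes of lipases and remodelling, 6 had positive and 7 negative values, with a median of -0.02 and 0 past the adjusted test. An unadjusted p under 0.05 was reached by 2 of the 13, higher in each case, beside 11.2% of all genes. The lowest unadjusted p-values were those of *Lpl* (0.52), its anchor *Gpihbp1* (0.40) and *Pon1* (0.32), with log2 fold changes in parentheses and edgeR adjusted p of 0.180, 0.215 and 0.253. Without *Srsf10-kd* 3, *Gpihbp1* had 0.24 and *Pon1* 0.18.

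Of 13 other apolipoprotein genes listed, 11 were tested, since *Apod* had 18 counts in all and *Lpa* was not found as a symbol. All 11 had positive log2 fold changes from 0.10 to 3.75, beside 51.3% of all genes tested, with a median of 0.30, and 0 passed the adjusted test. After the trend on length was removed 9 were positive and 2 negative. Without that removal, 6 of the 11 had an unadjusted p under 0.05, all higher, beside 11.2% of all genes. The 2 far values were the acute-phase genes *Saa1* and *Saa2*, near-identical copies whose reads may be split between them. *Saa1* had 42.1, 18.0, 22.0 and 29.4 CPM in *Ctrl*, and 747, 102, 130 and 17.6 CPM under the *Srsf10-kd* label. A single liver, *Srsf10-kd* 1, thus set the mean, while *Srsf10-kd* 4 had the lowest value of all 8, and the edgeR adjusted p of the log2 fold change of 3.16 was 0.132, with a fold change of 1.58 without that first liver. *Apoo*, which despite its name works in the mitochondrial inner membrane, had 8.20 to 9.47 CPM in *Ctrl* and 10.1 to 12.8 CPM in the others, without overlap. Its log2 fold change was 0.32 (edgeR adjusted p = 0.166), and 0.059 after the trend on length was removed (edgeR adjusted p = 0.760).

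**Figure D5:**
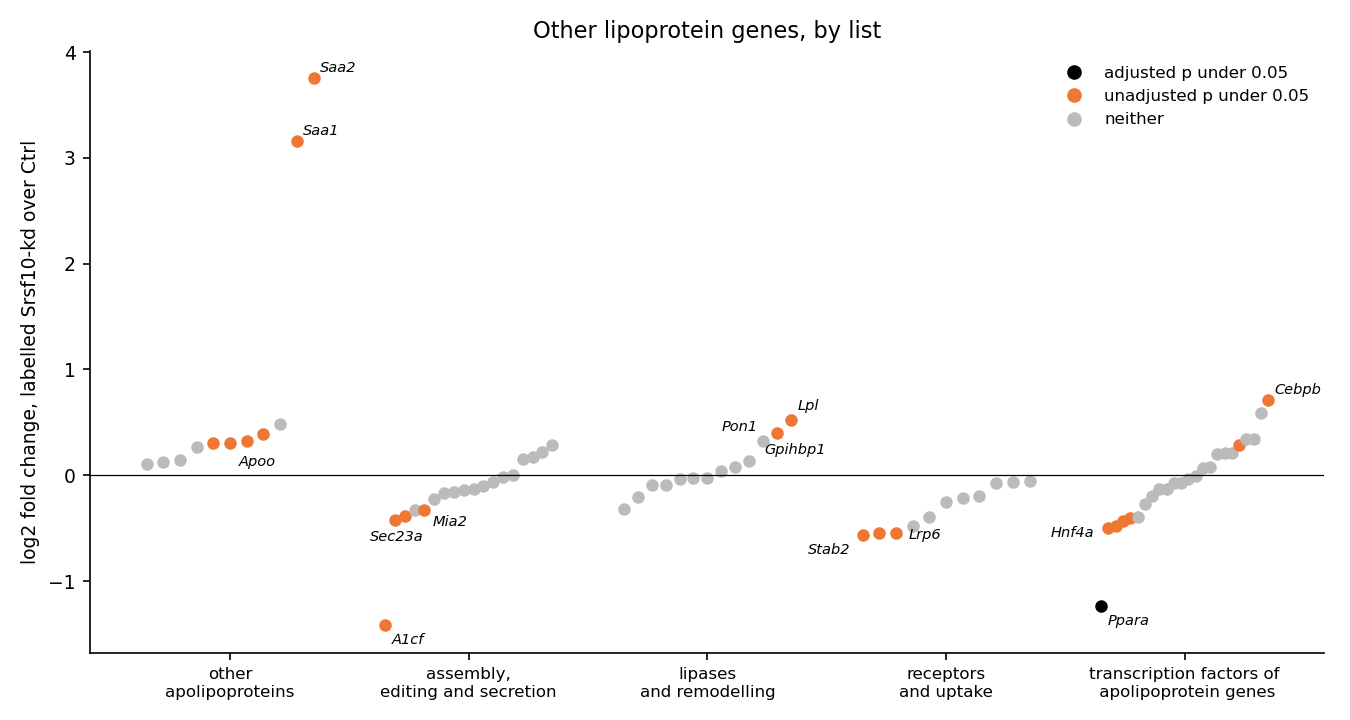
Log2 fold change, livers labelled *Srsf10-kd* over *Ctrl*, of each tested gene of the 5 lists, with black points past an adjusted p of 0.05, orange points past an unadjusted p of 0.05 and grey points past neither. *Ppara* at -1.24 is the 1 black point, *A1cf* at -1.42 lies lowest, and the 11 receptor and uptake genes all lie below 0, where 8 did after removal of the trend on length.

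The genes whose pattern over the 8 livers was most like that of *Apob* were found among 3779 genes with a mean log2 CPM of at least 5, by the root mean square difference of centred log2 CPM. They were *Dpp8* (0.133), *Ncoa4* (0.163), *H6pd* (0.164), *Atp2a2* (0.173) and *Trip11* (0.173), where the SD of *Apob* itself was 0.607. Each was lowest in *Srsf10-kd* 3, and their exons hold 5236 to 13707 bases. For *Apoa4*, the other member with the largest SD (0.952), the nearest were *Cyp4a12b* (0.402), *Cidec* (0.506), *Elovl2* (0.528), *Got1* (0.531) and *Serpina1e* (0.532). These were all highest in *Ctrl* 4, and their distances are larger relative to the SD. The points share library, depth and the trend on length, so the likeness is a description.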

How the data were processed

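Poly(A) RNA of 8 livers was sequenced from both ends after directional library preparation. The authors aligned reads to GRCm38 with STAR (2.7.7a in the submitters' processing notes) and deposited raw counts per gene. The annotation release and strand column are not given in the sources used here. From the counts, edgeR 4.0.16 (R 4.3.3) gave TMM-scaled CPM, filterByExpr, two-sided quasi-likelihood tests on group alone and Benjamini-Hochberg adjustment. Log2 CPM used a prior count of 2. DESeq2 1.42.0 and limma 3.58.1 were alternatives. Lengths and positions came from GENCODE M21. Scripts were tested on simulated counts.

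Depth was 50456404 to 59697241 counts per liver, so counting error is small beside the spread between livers. No 2 columns agreed within sampling noise. Members and lists were chosen with earlier results of these data known. The named genes were all members, *Srsf10*, from each list every gene past adjusted p 0.05 and the 3 with the smallest unadjusted p, and the nearest genes in pattern. A gene named by this rule is not reported here. Splicing, polyadenylation sites and editing need reads and were not analysed here.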

Additional observations from a re-analysis of the deposited data

Results flagged for a closer look

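Among 56 groups of 4 livers (28 genes), 7 held a liver far from the other 3, where chance gives 2.8 if groups are independent. They are not, since genes such as *Saa1* and *Saa2* move together and some were named for small p-values. The excess was not tested. *Apoa1* was at 5940 CPM in *Srsf10-kd* 2, against 10376 to 10692 CPM in the others of its group. *Srsf10-kd* 3 stood apart for *Apoc1* (4689 CPM against 2147 to 2569), for *Apoc3* (2771 CPM against 1250 to 1447) and, on the low side, for *Lrp6* (41.6 CPM against 55.6 to 57.5). *Srsf10-kd* 1 stood apart for *Saa1* (747 CPM against 17.6 to 130) and *Saa2* (516 CPM against 6.82 to 64.0). In *Ctrl* 3 *Mia2* reached 388 CPM, and the rest of that group lay between 356 and 360 CPM.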

How the results depend on the processing

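*Apob* had a negative log2 fold change under all 18 alternatives, from -1.03 to -0.68, and passed an adjusted p of 0.05 under 3 of them, DESeq2 (-0.94), limma-voom with sample quality weights (-0.82) and without both livers numbered 3 (-0.81). In each of these 3 it was the 1 member called, against 0 in edgeR's main setting, where 3 members had an unadjusted p under 0.05. With 1 liver left out in turn, 0 members were called, and the *Apob* value lay between -1.03 and -0.75 with adjusted p from 0.0588 to 0.322. In fitted log2 fold changes, the difference of *Apob* from the short members lay between -1.22 and -0.79 with 1 liver left out. It was -0.57 after removal of the trend on length. In log2 CPM per liver, the difference lay between -1.23 and -1.10 with 1 short member left out.

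The number of genes called moved from 11 (11 lower) to 819 with DESeq2 (508 lower, 311 higher), 1814 with limma-voom, 46 without a filter on low counts, 59 with the replicate block, 1342 without both livers numbered 3 and 7 after removal of the trend on length. With 1 liver left out in turn it lay between 0 (without *Ctrl* 2 or *Srsf10-kd* 1, 2 or 4) and 544 (without *Ctrl* 3), with 4 without *Ctrl* 1, 5 without *Ctrl* 4 and 64 without *Srsf10-kd* 3. In the fits with 0, an unadjusted p under 0.05 was seen for 2154 to 3656 genes. Why the counts moved was not examined, and the cause was not tested. With the replicate number as a block *Apob* had -0.97 (edgeR adjusted p = 0.0663) and 0 members were called. The deviations of same-numbered livers correlated at -0.18, 0.21, 0.27 and 0.22, and 5 of 8 livers correlated best with their own number, a hint of pairing in the data for 3 of the 4 numbers. Since 1 pair did not correlate above 0.1 and the labels tie no number to a litter or day, the numbers were not taken to pair the livers.

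Over the 10 members, 164 of 180 values kept their direction and side of the threshold and 13 reversed. *Apoa1* (-0.01) was 0.16 with limma-voom and 0.078 without both livers numbered 3, and it ran from -0.091 to 0.159 with 1 liver left out. *Apoa5* (0.02) was -0.096 after removal of the trend on length and -0.0097 after that on GC content, and it ran from -0.062 to 0.115 with 1 liver left out. Of these 2, the single livers whose loss turned the sign were *Ctrl* 3 and 4 and *Srsf10-kd* 2 for *Apoa1*, and *Ctrl* 2 and 4 and *Srsf10-kd* 3 and 4 for *Apoa5*. *Apoa4* (-0.87) was 0.16 with limma-voom, and *Apoc2* (0.31) was -0.0089 after removal of the trend on length. Without *Ctrl* 2 or *Srsf10-kd* 1, 2 or 4, *Ppara* kept a value from -1.27 to -1.21 but had adjusted p from 0.0536 to 0.106. At 5943 counts or more per liver, counting error is small for every member.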
